A study of Mus musculus with 8 samples.

Results

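A set of 10 genes of the endothelial lineage, among them genes of the sinusoid lining, was followed through RNA-seq of sorted bone marrow cells: Cdh5, Pecam1, Kdr, Emcn, Tie1, Tek, Flt4, Stab2, Vwf and Egfl7. They were chosen by name as markers of vessel walls, by a rule that uses no measured value but with earlier results of these data known, and all 10 were found by symbol among the 49315 genes of the deposited counts. The study sorted the PDGFRα+ Sca-1+ (Pα-S) mesenchymal stem cell fraction into 7 populations, called clusters 1 to 7. The labels also name an input of bone marrow cells (Input cell_BM), and whether it was sorted is not given in the sources used here. Each of the 8 groups had 1 library, so no group had a replicate and no difference could be tested. All 8 samples were labelled as wild type C57BL/6J bone marrow stromal cells at 6 weeks after birth, with no treatment and no transgene named. The study states that cells carrying CD31, CD45 or Ter119 were gated out in the sort, and that the clusters were separated by combinations of Cd24, Cd39, Cd54, Sca-1 and Ly-6C. The extraction text of the labels describes crushed marrow and not sorted cells, and the labels do not say how many animals were pooled.

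Endothelial cells line all blood vessels, and in bone marrow most of them form sinusoids, wide thin-walled vessels through which blood cells enter the circulation. They are held together by VE-cadherin and CD31, are maintained by signals from VEGF and angiopoietin through receptor tyrosine kinases, and carry scavenger receptors in sinusoids. Stromal cells that wrap these vessels secrete ligands of the same receptors, so both sides of this exchange can be read in marrow RNA. CD31, the product of Pecam1, was the surface protein by which endothelial cells were meant to be gated out.

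Levels are given as RPKM, the reads per kilobase of exon, scaled to the library's reads on genes, with exact 95% Poisson intervals that cover counting error only. Clusters 1 to 7 had total counts of 24205863, 25349917, 27102715, 32549319, 12833648, 31669132 and 33238133, and the input had 20162876. The 10 genes had from 19 to 824 reads in a library, and none was at 0 in any library. Some features of the libraries bear on the values that follow. In cluster 5, a share of 34.8% of the reads fell on Rn18s-rs5, Lars2 and mmu-mir-689-2 and 5.21% on haemoglobin genes, and edgeR's TMM factors raised all log2 levels by 0.44 in cluster 5 and by 0.37 in cluster 6, and lowered them by 0.68 in the input. The input library held many genes at low level: 17570 genes were above RPKM 2, against 8685 to 10498 in the sorted libraries. The 858 olfactory receptor genes, which marrow is not expected to use, had a 95th percentile of RPKM 2.75 in the input and of 0.0112 to 0.232 in the sorted libraries. All 10 genes lay above this percentile in every sorted library, whereas only Pecam1 and Emcn did so in the input.

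Transcripts of the lineages gated out were detected in the sorted libraries. Ptprc, which encodes CD45, had an RPKM of 1.69 in cluster 3 up to 9.26 in cluster 7 and 13.5 in the input. The haemoglobin gene Hba-a1 had 593 in cluster 6 up to 30376 in cluster 5, and 267 in the input. The stromal genes Col1a1 and Pdgfra were present in all 8 libraries, with Col1a1 at 1962 to 15952 in the sorted libraries and 691 in the input, and Pdgfra at 4.37 to 28.1 and 14.1. In such bulk RNA, fewer cells of a type and less RNA per cell cannot be told apart.

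The 10 endothelial genes were expressed at low level throughout, between RPKM 0.0910 (Flt4 in cluster 2) and 5.31 (Tek in cluster 1) in the sorted libraries. Of the 10, 5 (Cdh5, Pecam1, Tie1, Tek and Egfl7) exceeded RPKM 2 in at least 1 sorted library, and 6 (Cdh5, Pecam1, Emcn, Tek, Stab2 and Vwf) exceeded it in the input. Their summed RPKM was 17.2, 10.6, 14.4, 5.44, 16.4, 3.87 and 12.0 in clusters 1 to 7 and 20.1 in the input. Clusters 4 and 6 held the lowest sums, also by TMM (5.58 and 4.99, against 10.7 to 22.1 in the other 5 sorted libraries). The input held the highest sum by total count, but by TMM it held 12.6 and cluster 5 was highest at 22.1. The plot of levels by library shows all 80 values.

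**Figure D1:**
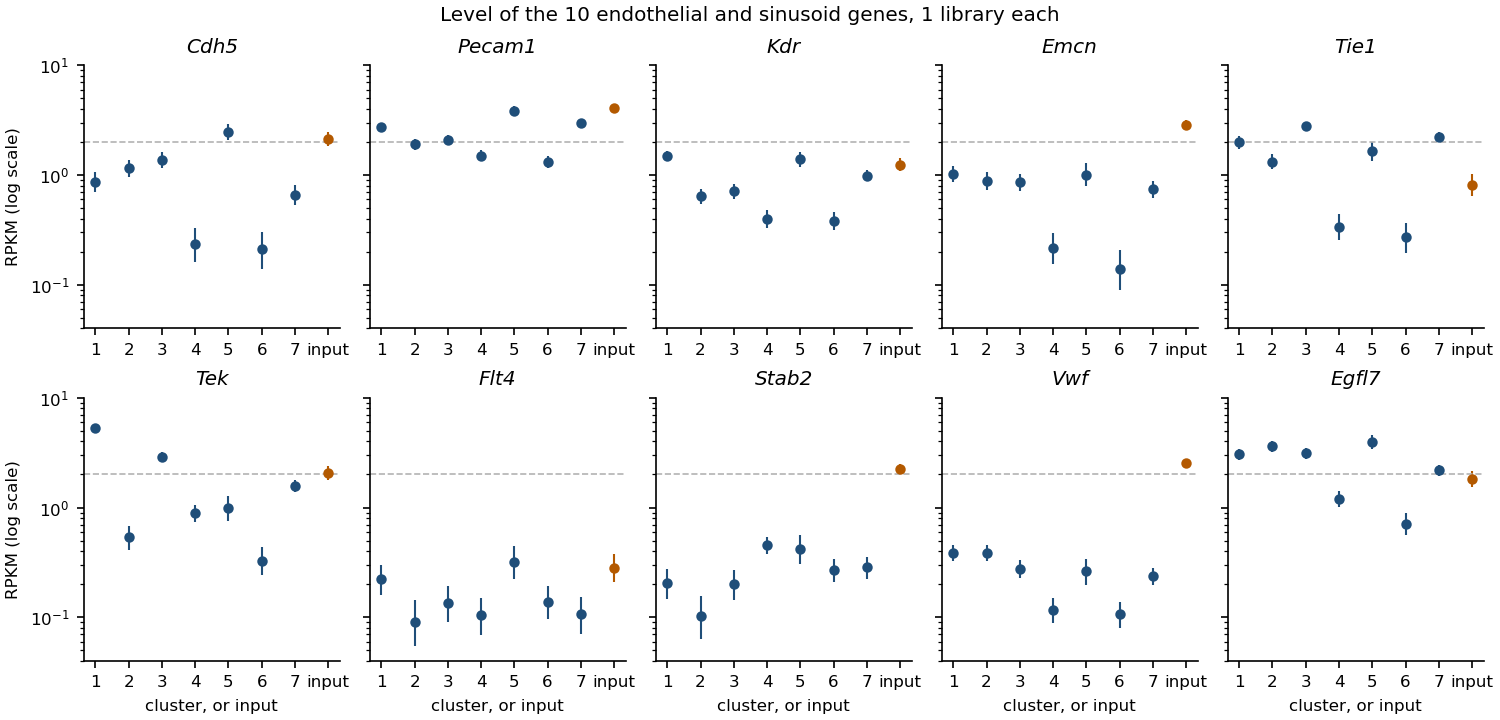
Level of each of the 10 genes in the 7 sorted clusters (blue) and the input (orange), as RPKM on a log axis, with exact 95% Poisson intervals as bars and RPKM 2 as a dashed line. Clusters 4 and 6 are the lowest sorted points for Cdh5, Pecam1, Kdr, Emcn, Tie1, Vwf and Egfl7, and the input point stands above all clusters for Pecam1, Emcn, Stab2 and Vwf, though not beyond counting error for Pecam1.

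Among the junction and adhesion genes, Cdh5 (ENSMUSG00000031871, chromosome 8, 104101625 to 104144511, GRCm38, 4203 exon bases) encodes VE-cadherin, the cadherin of endothelial adherens junctions. Its RPKM was 0.865, 1.15, 1.37, 0.234, 2.48, 0.210 and 0.659 in clusters 1 to 7 and 2.14 in the input. By total count, cluster 5 and the input were highest and could not be separated by counting error (ratio 1.16, 95% interval 0.923 to 1.46). Clusters 4 and 6 were lowest and also not separated. By TMM, cluster 5 exceeded the input by 2.51 times (1.99 to 3.16). Cluster 5 exceeded cluster 6 by 11.8 times (7.81 to 18.4).

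Pecam1 (ENSMUSG00000020717, chromosome 11, 106654217 to 106750628, 6228 exon bases) encodes CD31, which platelets and many leukocytes carry as well as endothelial cells. Its RPKM was 2.72, 1.91, 2.10, 1.50, 3.84, 1.31 and 2.97 in clusters 1 to 7 and 4.08 in the input. CD31+ cells were to be gated out of the clusters, whereas it is not known whether the input was gated, and these RNA levels do not measure the surface protein. By total count, the input exceeded cluster 5 by 1.06 times (0.920 to 1.23), and by TMM cluster 5 stood above the input with 5.19 against 2.55. Of the 10 genes, Pecam1 had the smallest range over the sorted libraries by total count, with cluster 5 exceeding cluster 6 by 2.92 times (2.47 to 3.46).

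Emcn (ENSMUSG00000054690, chromosome 3, 137341067 to 137432185, 5409 exon bases) encodes endomucin, a sialomucin of venous and sinusoidal endothelium. Its RPKM was 1.02, 0.882, 0.859, 0.216, 1.01, 0.140 and 0.740 in clusters 1 to 7 and 2.86 in the input. Clusters 1, 5, 2, 3 and 7 followed each other without a separation by counting error, and cluster 7 exceeded cluster 4 by 3.43 times (2.37 to 5.05). The input exceeded cluster 1, the highest sorted library, by 2.80 times (2.28 to 3.45), or cluster 5 by 1.31 times by TMM (1.01 to 1.73). The 250 bases before the RefSeq start of Emcn (chr3:137340828-137341077, plus strand, GRCm38.p6) are shown because Emcn belongs to the genes that were low in clusters 4 and 6. Capitals mark AGGAAG or CGGAAG on either strand (CTTCCT or CTTCCG on the strand shown), core words of ETS factors, a family that endothelial cells use widely.
Emcn: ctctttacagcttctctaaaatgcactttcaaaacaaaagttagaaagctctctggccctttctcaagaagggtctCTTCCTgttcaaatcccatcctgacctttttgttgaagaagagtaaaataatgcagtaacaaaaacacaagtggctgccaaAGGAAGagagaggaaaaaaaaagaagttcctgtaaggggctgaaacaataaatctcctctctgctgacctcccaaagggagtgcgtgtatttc

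The VEGF receptors Kdr and Flt4 differed in level and order. Kdr (ENSMUSG00000062960, chromosome 5, 75932827 to 75978458, 9030 exon bases) encodes VEGFR2, the main signalling receptor for VEGF-A. Its RPKM was 1.49, 0.638, 0.707, 0.398, 1.39, 0.381 and 0.986 in clusters 1 to 7 and 1.24 in the input. By total count, cluster 1 and cluster 5 led without separation, and cluster 1 exceeded cluster 6 by 3.90 times (3.13 to 4.89). By TMM, cluster 5 led, and the ratio of cluster 1 to cluster 5 was 0.717 (0.592 to 0.871).

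Flt4 (ENSMUSG00000020357, chromosome 11, 49609263 to 49652739, 8232 exon bases) encodes VEGFR3, the receptor for VEGF-C and VEGF-D that lymphatic and sinusoidal endothelium carry. It had the lowest RPKM of the 10 in clusters 2, 3, 4 and 7 and in the input, with 0.221, 0.0910, 0.134, 0.104, 0.322, 0.138 and 0.106 in clusters 1 to 7 and 0.283 in the input. These values rested on 19 to 47 reads, and 6 of the 7 steps between neighbouring libraries were within counting error. Cluster 1 exceeded cluster 6 by 1.60 times (1.01 to 2.56) by total count, with 0.200 against 0.178 by TMM, and cluster 5, the highest, exceeded cluster 2, the lowest, by 3.53 times (1.96 to 6.56). Kdr exceeded Flt4 within every library, by 2.76 times in cluster 6 (1.88 to 4.14) up to 9.30 times in cluster 7 (6.34 to 14.1).

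Tie1 and Tek encode the receptors of the angiopoietin system, Tek (also called TIE2) binding angiopoietins and Tie1 acting as its co-receptor. Tie1 (ENSMUSG00000033191, chromosome 4, 118471191 to 118490061, 4917 exon bases) had an RPKM of 1.98, 1.32, 2.77, 0.337, 1.65, 0.270 and 2.23 in clusters 1 to 7 and 0.817 in the input. Cluster 3 was highest, and 5 sorted libraries were above the input. Cluster 3 exceeded cluster 6 by 10.3 times (7.45 to 14.5) and the input by 3.39 times (2.66 to 4.37) by total count. By TMM, cluster 3 exceeded the input by 5.50 times (4.31 to 7.09). With the total count less the 3 loci, mitochondrial and haemoglobin genes, cluster 5 was the highest library for Tie1.

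Tek (ENSMUSG00000006386, chromosome 4, 94739289 to 94874976, 4712 exon bases) had the largest range of the 10 genes over the sorted libraries by total count. Its RPKM was 5.31, 0.536, 2.87, 0.887, 0.992, 0.328 and 1.57 in clusters 1 to 7 and 2.07 in the input. Only clusters 5 and 4 could not be separated among its 7 neighbouring steps, and cluster 1 led under all 4 scalings. Cluster 1 exceeded cluster 3 by 1.85 times (1.62 to 2.11), the input by 2.56 times (2.18 to 3.02) and cluster 6 by 16.2 times (12.1 to 22.1). The 250 bases before the RefSeq start of Tek (chr4:94739039-94739288, plus strand, GRCm38.p6) are shown for comparison with Emcn, since clusters 4 and 6 were not the lowest pair for Tek. They hold no ETS word, and neither does the window of Kdr, for which clusters 4 and 6 were the lowest pair.
Tek: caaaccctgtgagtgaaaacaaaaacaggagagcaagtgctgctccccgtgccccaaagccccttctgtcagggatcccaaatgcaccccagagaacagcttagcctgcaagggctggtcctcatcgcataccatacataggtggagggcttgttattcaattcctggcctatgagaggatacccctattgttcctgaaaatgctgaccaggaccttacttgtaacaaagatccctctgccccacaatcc

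Ratios of genes within a library do not depend on the scaling. Tek over Tie1 was 2.68 in cluster 1 (2.30 to 3.13), 2.63 in cluster 4 (1.90 to 3.67) and 2.54 in the input (1.95 to 3.33). It was near 1 in cluster 3 (1.04, 0.896 to 1.20) and cluster 6 (1.22, 0.790 to 1.88). Lower ratios were found in cluster 2 (0.405, 0.298 to 0.543), cluster 5 (0.602, 0.431 to 0.835) and cluster 7 (0.705, 0.597 to 0.831). Thus the receptor exceeded its co-receptor in clusters 1 and 4 and in the input, and lay below it in clusters 2, 5 and 7.

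Stab2 (ENSMUSG00000035459, chromosome 10, 86841203 to 87007942, 8140 exon bases) encodes stabilin-2, the hyaluronan scavenger receptor that marks sinusoidal endothelium. Its RPKM was 0.203, 0.102, 0.199, 0.453, 0.421, 0.268 and 0.285 in clusters 1 to 7 and 2.26 in the input. Cluster 4, the second lowest library for Cdh5, was the highest sorted library for Stab2 by total count, without separation from cluster 5 (ratio 1.08, 0.755 to 1.56), and cluster 5 was highest under the other 3 scalings. The input exceeded cluster 4 by 4.99 times (4.05 to 6.18), and by TMM exceeded cluster 5 by 2.49 times (1.82 to 3.48). Stab2 over Cdh5 was 1.94 in cluster 4 (1.30 to 2.96), 1.27 in cluster 6 (0.809 to 2.05) and 1.06 in the input (0.884 to 1.27). The same ratio lay between 0.0882 in cluster 2 (0.0527 to 0.141) and 0.432 in cluster 7 (0.315 to 0.591) in the other 5 sorted libraries. The gene shares 141 exon bases with Gm16268 on the other strand. The 250 bases before its RefSeq start (chr10:87007943-87008192, minus strand, GRCm38.p6) hold 1 ETS word.
Stab2: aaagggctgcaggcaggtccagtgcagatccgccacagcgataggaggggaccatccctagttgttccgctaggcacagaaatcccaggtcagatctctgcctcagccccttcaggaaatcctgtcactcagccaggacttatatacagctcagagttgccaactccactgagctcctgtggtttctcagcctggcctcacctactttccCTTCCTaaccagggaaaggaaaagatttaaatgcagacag

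**Figure D2:**
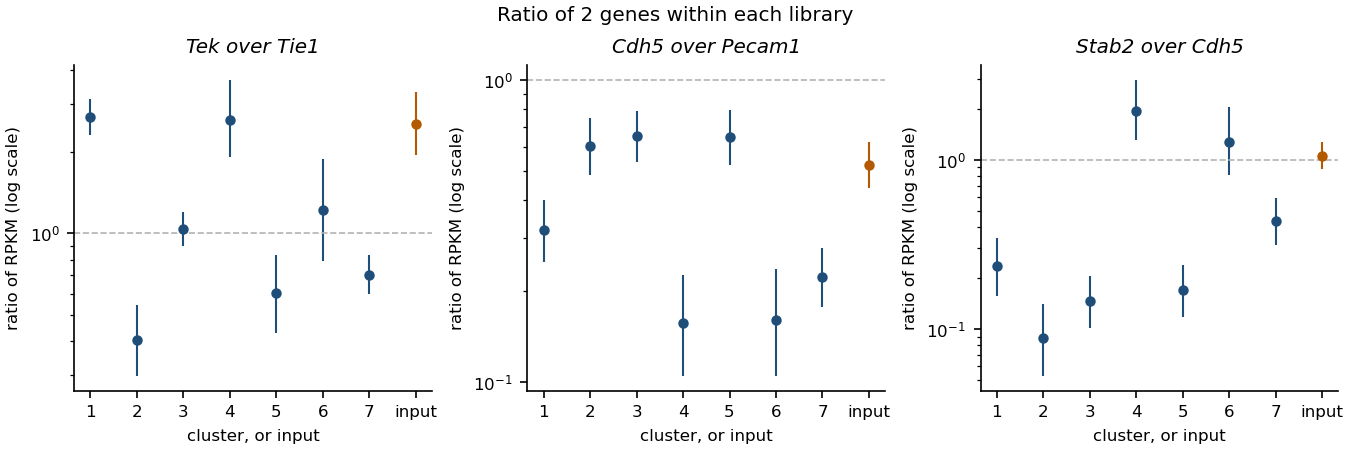
Ratio of the RPKM of a pair of genes within each library, on log axes, for Tek over Tie1, Cdh5 over Pecam1 and Stab2 over Cdh5; bars are exact 95% intervals of counting error, the dashed line marks a ratio of 1, and the input is orange. Clusters 4 and 6 are lowest for Cdh5 over Pecam1 (0.156 and 0.160) and highest among the clusters for Stab2 over Cdh5 (1.94 and 1.27).

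Of the secreted products, Vwf (ENSMUSG00000001930, chromosome 6, 125546774 to 125686679, 16064 exon bases) encodes von Willebrand factor, stored by endothelial cells and by megakaryocytes and platelets. Its RPKM was 0.386, 0.386, 0.276, 0.117, 0.262, 0.106 and 0.236 in clusters 1 to 7 and 2.54 in the input. Every sorted library was far below the input, which exceeded cluster 1 by 6.59 times (5.54 to 7.90) and, by TMM, cluster 2 by 4.11 times (3.46 to 4.91). The olfactory receptor percentile of 2.75 in the input lies above the input values of Vwf and Stab2, and its part in these differences was not tested.

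Egfl7 (ENSMUSG00000026921, chromosome 2, 26580014 to 26593120, 3581 exon bases) encodes a matrix protein that endothelial cells secrete during tube formation, and its locus hosts Mir126. Its RPKM was 3.05, 3.60, 3.11, 1.19, 3.98, 0.714 and 2.18 in clusters 1 to 7 and 1.83 in the input. Of the sorted libraries, 5 were above the input by total count and 6 by TMM. Cluster 5 exceeded the input by 2.18 times (1.73 to 2.75), or by 4.70 times by TMM (3.74 to 5.93). By total count, cluster 5 exceeded cluster 6 by 5.58 times (4.27 to 7.33). Egfl7 shares 264 exon bases with Gm20532, 73 with Mir126, 64 with Agpat2 and 58 with ENSMUSG00000105799, and how reads in them were assigned is not given in the sources used here.

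The fold changes were counted with the thresholds of the study, RPKM above 2 and a fold change above 2, the latter in RPKM + 1. All 5 genes that passed RPKM 2 differed by more than 2-fold between the highest and the lowest sorted library, as did 70.6% of the 12360 genes tested, so this count is close to what most genes showed. Compared with the median of the other 6 sorted libraries, Tek was higher in cluster 1 (5.21% of genes), Tie1 was lower in cluster 4 (1.47%), and Tie1 and Egfl7 were lower in cluster 6 (10.5%). The highest sorted library was cluster 1 for Kdr, Emcn, Tek and Vwf (21.4% of the 17814 genes with at least 20 reads in a sorted library), cluster 3 for Tie1 (9.78%), cluster 4 for Stab2 (9.92%) and cluster 5 for Cdh5, Pecam1, Flt4 and Egfl7 (6.16%). None was highest in cluster 2 (21.9%), cluster 6 (7.42%) or cluster 7 (23.4%). These counts followed the scaling, since by TMM cluster 5 was highest for 7 of the 10 genes and for 13.4% of all genes, and by the total count less the 3 loci, mitochondrial and haemoglobin genes it was highest for 9 of the 10 and for 23.6% of all.

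The order at the lower end moved less with the scaling. Clusters 4 and 6 were the lowest 2 of the 7 sorted libraries for 7 of the 10 genes, Cdh5, Pecam1, Kdr, Emcn, Tie1, Vwf and Egfl7, against 4.09% of the 17814 genes. This pattern was noticed in the values and then counted, so it is a description of these libraries. The count was 7 of 10 also by TMM, DESeq2 size factors and the reduced total, for which 3.23%, 3.22% and 9.86% of all genes had this order. For Pecam1 the margin was narrow by TMM, with 1.69 in cluster 6 (259 reads) against 1.92 in cluster 2 (302 reads). No interval was computed for that step. By total count, the lowest pair was clusters 2 and 6 for Tek, clusters 2 and 4 for Flt4, and clusters 2 and 3 for Stab2. Cdh5 over Pecam1 within a library was 0.156 in cluster 4 (0.105 to 0.225), 0.160 in cluster 6 (0.104 to 0.237) and 0.222 in cluster 7 (0.176 to 0.277). It was 0.318 in cluster 1 (0.250 to 0.401) and 0.604 to 0.651 in clusters 2, 3 and 5. Hence the junction gene was low in clusters 4 and 6 also relative to Pecam1, though not in these alone, since the interval of cluster 7 overlapped theirs.

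**Figure D3:**
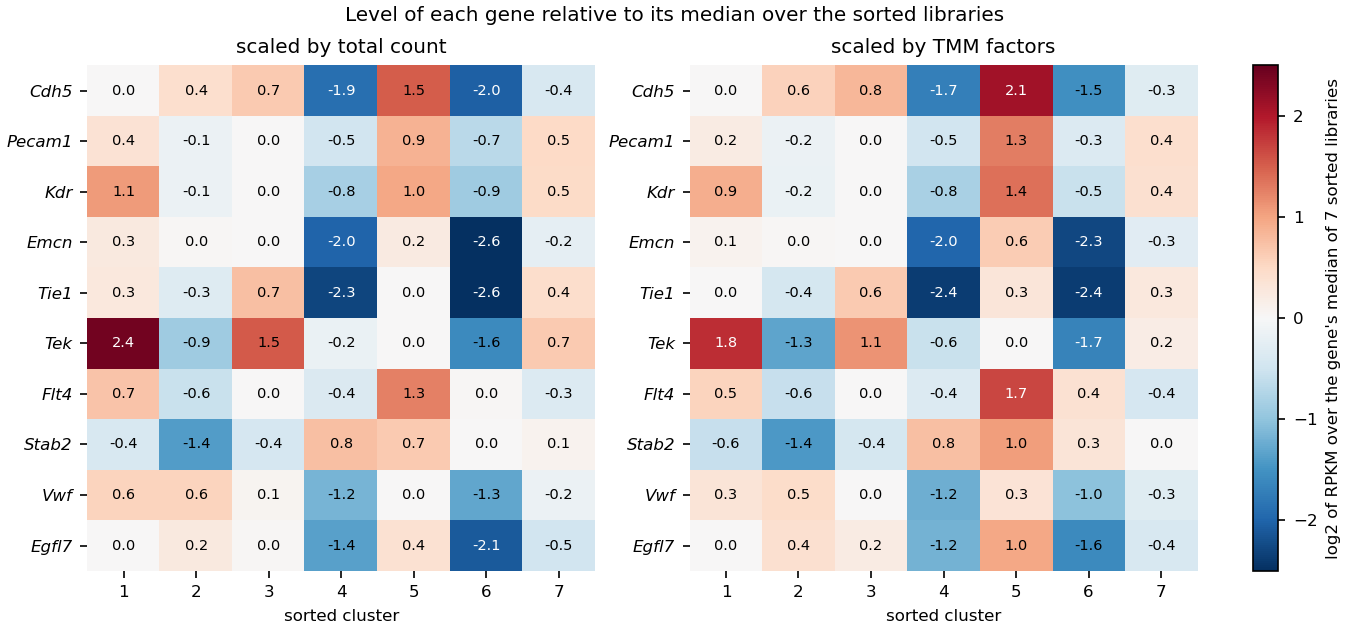
Log2 ratio of the RPKM of each gene (vertical axis) to its own median over the 7 sorted libraries (horizontal axis), scaled by the total count (left) and by TMM factors (right); red is above and blue below the median, and the numbers are the log2 ratios. Clusters 4 and 6 hold the lowest 2 values for 7 of the 10 genes in both panels, and the column of cluster 5 turns redder with TMM.

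Compared with the input by the rule above, Tek was higher in cluster 1 (5.53% of genes) and Tie1 in cluster 3 (4.33%). Stab2 and Vwf were lower in all 7 sorted libraries, and no other gene was lower in cluster 1 (41.6% of genes) or cluster 5 (61.0%). Emcn was also lower in cluster 3 (46.5%) and cluster 7 (39.4%), and Emcn and Tek in cluster 2 (47.9%). Of 6 genes that passed the level filter in cluster 4 or the input, all but Tek were lower in cluster 4 (45.5%), and all 6 were lower in cluster 6 (53.6%), which besides Stab2, Vwf and Emcn were Cdh5, Pecam1 and Tek. Every gene called lower passed RPKM 2 only through the input. Tie1, called higher in cluster 3, passed only through cluster 3 (2.77, against 0.817 in the input). These counts therefore describe the genes and support nothing. By TMM, which lowers the input, 1 to 4 of the 10 genes passed the filter in a comparison, Stab2 and Vwf not among them, and 0 were called lower, against 25.9% to 29.5% of all genes. Without the added 1, the input still exceeded the highest sorted library by TMM by 4.11 times for Vwf and 2.49 times for Stab2, as given above. The 7 comparisons share the input library.

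Other endothelial genes were read from lists drawn from textbook knowledge. Of 24 other pan-endothelial genes, 11 exceeded RPKM 2 in a sorted library and 10 of these differed by more than 2-fold between the highest and the lowest sorted library, beside 70.6% of all genes. Clusters 4 and 6 were the lowest 2 sorted libraries for 11 of 23 with enough reads (4.09% of all genes), and for 9 by TMM (3.23%). These 11 were Flt1, Esam, Cldn5, Sox17, Sox18, Robo4, Ptprb, Nos3, Rasip1, Myct1 and Adgrl4, and Nos3 and Adgrl4 left the count by TMM. Cldn5, a tight junction claudin, had an RPKM of 2.45, 3.74, 7.36, 1.83, 10.3, 0.424 and 2.98 in clusters 1 to 7 and 2.14 in the input. Flt1, which encodes the VEGF-A receptor VEGFR1, had 1.15, 0.795, 1.11, 0.485, 1.21, 0.164 and 0.947 and 1.40. Among the sorted libraries, both were thus highest in cluster 5 by total count and lowest in cluster 6. Others went a different way: S1pr1, a sphingosine-1-phosphate receptor that lymphocytes also use, had 5.49, 5.19, 11.6, 7.69, 9.62, 12.3 and 23.1, and Plvap, which forms fenestral diaphragms, had 14.7, 9.25, 8.02, 11.3, 11.3, 2.99 and 11.9. Erg was highest of the sorted libraries in cluster 6 (1.97, with 1.29 in cluster 4) and lowest in cluster 3 (0.479). Fli1 was highest in cluster 7 (11.2), with 9.28 in cluster 6, and lowest in cluster 3 (4.28). Clec14a was highest in cluster 7 (1.55), with 1.47 in cluster 4, and lowest in cluster 2 (0.104).

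Clusters 4 and 6 were the lowest pair for 1 of 11 other sinusoidal genes, beside 4.09% of all genes, a count too small to set this list apart. The gene was Selp, the P-selectin that platelets also store, with 1.36, 2.93, 6.67, 1.05, 4.15, 0.837 and 3.20 in clusters 1 to 7 and 1.39 in the input. Stab1, the paralogue of Stab2, had 0.510, 0.238, 0.871, 0.284, 0.356, 0.233 and 0.357 and 1.46 in the input, so that both stabilins were highest in the input by total count. The olfactory receptor percentile of 2.75 in the input lies above the input values of both, and its part was not tested. Vcam1, an adhesion molecule that stromal cells express too, was high in cluster 4 (26.0) and cluster 7 (26.7) and low in clusters 2 and 6 (3.29 and 3.19). Of 10 arterial genes, Gja4, Dll4 and Sema3g were lowest in clusters 4 and 6. Of the 4 lymphatic genes, Pdpn, which encodes podoplanin and which stromal cells use as well, carried nearly the whole sum, at RPKM 12.9 to 43.9 in the sorted libraries and 16.2 in the input. Prox1 stayed at 0.216 to 0.527 in the sorted libraries, and Ccl21a was at 0 in all 8 libraries, where a count of 0 allows up to 3 reads.

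Some genes of red cells and platelets shared the low pair, which 4.09% of all genes had. Of 7 erythroid genes, 6 had their lowest pair in clusters 4 and 6, and the summed erythroid RPKM was 14564, 13323, 7331, 2260, 68516, 1593 and 7412 in clusters 1 to 7 and 690 in the input, with Hba-a1 the most abundant in 6 of the 7 sorted libraries and Hbb-bs in cluster 7. Of 10 megakaryocyte and platelet genes, 3 (Pf4, Ppbp and Treml1) had that lowest pair, and the sum was 76.8, 41.2, 103, 22.3, 63.7, 7.74 and 30.4, and 24.8 in the input. Pf4, the platelet factor 4 gene and the most abundant of that list, had 46.1, 25.7, 67.0, 10.1, 40.7, 2.28 and 16.9, and 5.98 in the input, Gp9 was at 0 in cluster 2, and Gp6 was at 0 in cluster 6. Of the 8 pan-haematopoietic genes, 0 had that lowest pair, which is close to the share of all genes. Their sum, led by Arhgdib in all libraries, was 396, 360, 272, 497, 464, 520 and 998, and 1658 in the input. The part of red cell and platelet RNA in the endothelial pattern was not tested.

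**Figure D4:**
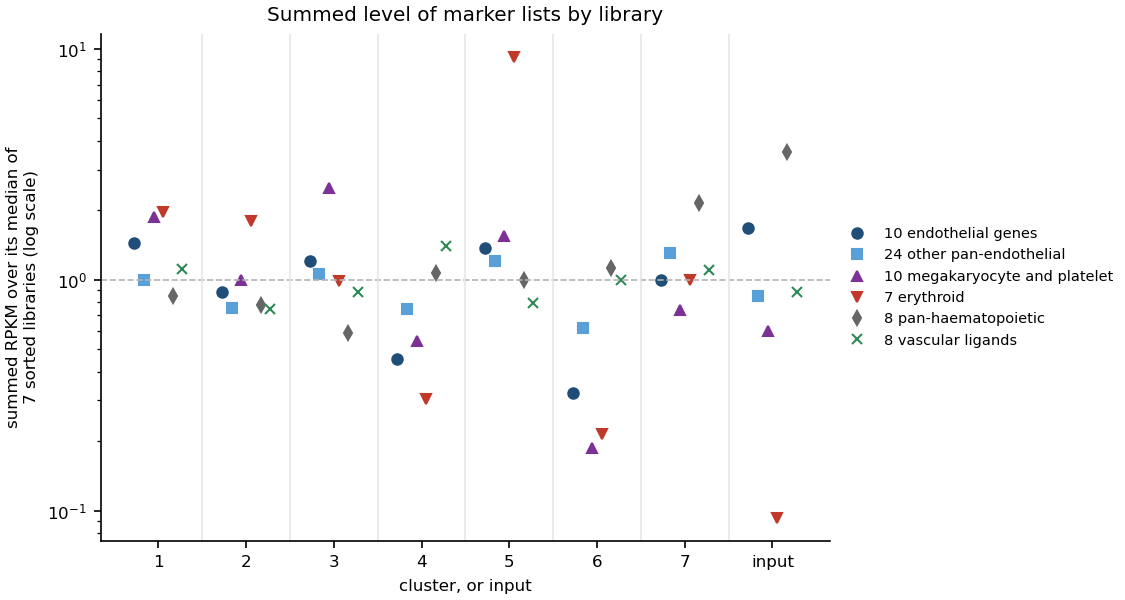
Summed RPKM of 6 gene lists in each library, divided by the list's own median over the 7 sorted libraries, on a log axis; each symbol is 1 list and each column 1 library. The 10 endothelial, the megakaryocyte and the erythroid genes lie lowest among the clusters in 4 and 6, whereas the pan-haematopoietic genes are highest in cluster 7 and in the input.

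On the ligand side, 8 vascular ligand genes were read. Vegfa, the ligand of Kdr, had an RPKM of 33.5, 36.8, 27.9, 39.4, 24.0, 56.8 and 35.2 in clusters 1 to 7 and 20.5 in the input, and cluster 6 was highest, where Kdr was among the lowest 2. Vegfc, a ligand of Flt4, was highest in cluster 1 (9.82) and lowest in cluster 6 (0.425). Angpt4, which encodes a ligand of Tek, had 6.30, 1.82, 1.23, 21.1, 7.11, 1.53 and 10.7, and 10.7 in the input, with cluster 4 highest. Angpt1, the main activating ligand of Tek, had 4.61, 1.45, 1.25, 3.57, 2.23, 0.898 and 4.97, and 5.83 in the input, and was lowest in cluster 6, as Tek was. None of the 8 vascular ligand genes had clusters 4 and 6 as the lowest pair, which is close to the 4.09% of all genes that had it.

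The profiles of the 10 genes over the 7 sorted libraries were compared by Pearson's r of log2(RPKM + 1), as a description over 7 points that share their libraries and scaling. The 45 pairs had a median r of 0.652, and 38 were above 0. All 7 pairs below 0 involved Stab2, down to -0.66 with Vwf, and the highest was Emcn with Egfl7 (0.966). Among the 12360 genes above RPKM 2 in a sorted library, the named genes most like a member in profile included Esam, an endothelial adhesion molecule, for Emcn (0.989) and Tie1 (0.921), and Sox18, an endothelial transcription factor, for Cdh5 (0.979). For Pecam1 they were Tmcc2 (0.978) and the erythroid haem synthesis gene Alas2 (0.959). For Tek they were Adamts19 (0.962), Hmcn1 (0.960) and Hivep1 (0.957), for Egfl7 Gm15859 (0.992) and the lipid carrier gene Fabp4 (0.968), and for Tie1 the water channel gene Aqp1 (0.923) stood first. For Kdr the first was Mtrf1l (0.968) and for Vwf Ddx55 (0.988), and Stab2 and Tie1 had no gene above 0.95. For Flt4 the first was SNORD19B (0.990) and for Stab2 7SK (0.896). The mean profile of the 10 genes was most like mt-Tf (0.987), Snord118 (0.968) and Gm15445 (0.962), so the nearest genes were often not endothelial markers.

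Promoter windows of RefSeq (GRCm38.p6) were found for 7 of the 10 genes, in 9 windows of 250 bases before a RefSeq start. All 250 bases of the Flt4 window and 212 of those of Tie1 lay in exons of the deposited annotation. AGGAAG or CGGAAG on either strand occurred in 5 of 9 windows, those of Emcn, Tie1 and Stab2 and 2 of those of Egfl7, and in 39.2% of all 32817 windows of the same length. The SOX words AACAAT or AACAAAG occurred before Emcn and Tek, and in 13.8% of all windows. The GATA word AGATAA (9.99% of all) and the FOX word GTAAACA (3.16%) were found in none of the 9. Emcn, low in clusters 4 and 6, and Stab2, which was not, both held an ETS word, and the windows of Cdh5, Pecam1 and Vwf were not analysed here. A match is a description of letters and says nothing of binding.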

How the data were processed

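RNA-seq libraries of mouse bone marrow clusters 1 to 7 and of input cells were analysed, 1 library each. The deposited files hold raw counts of reads on the exons of each Ensembl gene, not normalized by the authors, with exon positions and lengths. According to the Methods, reads were trimmed and aligned with TopHat2 to mm9, whereas the deposited coordinates are those of GRCm38; the counting tool and strandedness are not given in the sources used here. The supplied NCBIM37 genome was not used.

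RPKM was obtained from these counts by dividing by exon length and by the library total over all genes, and fold changes used RPKM + 1. Because each group had 1 library, no test was made and edgeR and DESeq2 gave scaling factors only. Intervals are exact Poisson intervals of counts and exact binomial intervals of ratios, at 95%, for counting error only, since PCR copies were not separated. Genes with RPKM above 2 in a sorted library (12360), or in a sorted library or the input for comparisons with the input, entered fold changes, and genes with at least 20 reads in a sorted library (17814) entered the order of levels. Total counts ranged from 12833648 to 33238133. The 10 genes and 14 other lists (endothelial, vascular ligand, haematopoietic, neutrophil, B lineage, pericyte and stromal genes among them) were chosen with earlier results of these data known. The genes named were the 10, the first gene of each list, up to 4 more of each list by level and by ratio, and up to 3 genes most alike by Pearson's r; others were named after their values were seen. On simulated counts of 49315 genes, 200 of 200 genes raised 4-fold in cluster 1 were called above the median of the others, with 33 calls among 10432 unchanged genes. The raised genes were drawn from well expressed genes, above nearly all levels of the 10 genes in the sorted libraries, and the simulated noise was Poisson only. How often such a rise is called at the low levels of the 10 genes was therefore not tested.

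Alternatives were TMM factors, DESeq2 size factors, a total without 3 loci, mitochondrial and haemoglobin genes, a pseudocount of 0.1, other filters and omission of the cluster 5 library. Promoter sequences are those of RefSeq. Scaling factors came from edgeR 4.0.16 and DESeq2 1.42.0 in R 4.3.3, intervals from scipy 1.17.1, and plots from matplotlib 3.10.9, under Python 3.11.15 with pandas 2.3.3 and numpy 2.4.6.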

Additional observations from a re-analysis of the deposited data

How the results depend on the processing

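No paired analysis was possible because each group had 1 library, and for the same reason no replicate could be left out. With TMM factors, 1 of the 10 genes was above RPKM 2 in the input, in place of 6, and the numbers highest in clusters 1, 2, 4 and 5 became 1, 1, 0 and 7. The number lower than the input became 0 in each of clusters 1 to 7 (25.9% to 29.5% of all genes), and the number higher became 1 in cluster 2 (16.7%), 2 in cluster 5 (12.5%) and 1 in cluster 7 (10.1%). Then 2 genes were above the median of the others in cluster 5 (6.73%), and the summed RPKM of clusters 1, 5 and 6 and the input became 15.6, 22.1, 4.99 and 12.6. DESeq2 size factors gave the same changes in these counts, beside 26.0% to 29.8%, 16.7%, 13.3%, 8.87% and 7.48% of all genes, with sums of 15.2, 23.2, 4.97 and 12.8, and 11.1 in cluster 7. With the total less Lars2, mmu-mir-689-2, Rn18s-rs5, mitochondrial and haemoglobin genes, the numbers highest in clusters 1, 3, 4 and 5 became 1, 0, 0 and 9. In cluster 2, 2 genes were then lower than the input (44.4%), in cluster 5, 1 was lower (38.6%) and 2 higher (8.42%), and 3 were above the median of the others (11.1%). The sums became 18.0 in cluster 1, 12.1 in cluster 2 and 28.7 in cluster 5. With RPKM + 0.1, 4 genes were lower than the input in cluster 1 (46.0%), and 1 was higher in cluster 5 (4.08%) and 1 in cluster 7 (4.41%). Against the median of the others, 1 was then lower in cluster 2 (8.93%), 3 in cluster 4 (3.68%) and 4 in cluster 6 (18.2%), and 1 was higher in cluster 3 (5.49%) and 1 in cluster 5 (5.06%). Without the cluster 5 library, 3 genes in place of 5 differed by more than 2-fold between the highest and lowest library (52.1% of all genes), and 1 was above the median of the others in cluster 3 (3.44%). The 29 counts recomputed without a filter and the 29 with a minimum of 50 reads stayed within 1.5 times, as did the 2 recomputed at RPKM 1. The count of 7 genes lowest in clusters 4 and 6 was the same under the 3 other scalings, alternatives that were added after seeing the data. Beyond the construction of each scaling, the cause was not tested. Read numbers were low for Flt4 and Stab2, with 19 to 120 reads in the sorted libraries. Cdh5 (32 and 28 reads) and Emcn (38 and 24) also had few reads in clusters 4 and 6.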

Other observations

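Perivascular and stromal genes outside the comparisons above varied in their own order. Rgs5, a pericyte gene, had an RPKM of 14.3, 4.41, 16.5, 2.52, 4.39, 1.03 and 4.39 in clusters 1 to 7 and 3.34 in the input. It was the 1 gene of 8 in the pericyte list with clusters 4 and 6 as the lowest pair, beside 4.09% of all genes. Acta2, the smooth muscle actin gene, had 61.7, 28.3, 10.3, 39.8, 14.4, 4.68 and 84.7, and 17.5 in the input. Cspg4, the NG2 proteoglycan gene, was highest in clusters 2 and 6 (39.2 and 43.0), and lowest in cluster 5 (4.10). Of the 7 stromal genes none had that lowest pair, which is close to the share of all genes. Cxcl12, the chemokine of perivascular stroma, was highest in cluster 4 (139) and lowest in cluster 6 (5.04), and Col1a1 was highest in cluster 6 (15952).

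Among leukocyte lists, none of 8 macrophage, 7 neutrophil and 6 B lineage genes, nor of 6 stem and progenitor genes with enough reads, had clusters 4 and 6 as the lowest pair. These counts are close to the 4.09% of all genes that had this pair. Cd34, which endothelial, stromal and progenitor cells all use, had an RPKM of 122, 7.69, 77.4, 57.0, 9.62, 1.37 and 52.4 in clusters 1 to 7 and 89.5 in the input. Procr, the endothelial protein C receptor gene, was highest in cluster 3 (162) and lowest in cluster 6 (2.92), where Ly6a, the gene of Sca-1, was also lowest (4.98, against 78.3 to 931 in the other sorted libraries).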
